A study of Bos taurus with 60 samples.

Results

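CXCL12, CXCL13 and CXCL17 are 3 chemokine genes of the CXC family, and their expression was followed in bovine mammary tissue across the dry period. They were chosen by name, because the study discusses them as chemokines that attract neutrophils in early involution, in these same samples, and they make up 3 of the 25223 loci counted. Each was found by pairing its symbol with a locus: CXCL12 with XLOC_015867 (ENSBTAG00000005077), CXCL13 with XLOC_020653 (ENSBTAG00000008479) and CXCL17 with XLOC_008625 (ENSBTAG00000018652). Each of these loci carries 1 gene identifier, and all 3 passed the filter on low counts. Mammary biopsies came from 12 multiparous Holstein cows on 5 days counted from dry-off (D-3, D3, D7, D14 and D25), 60 samples in all, and every cow was dried off 46 d ahead of its expected calving date. During the dry period 6 cows were heat-stressed (HT), with shade as their only relief, and 6 were cooled (CL) by fans and soakers in addition to shade. The D-3 samples were taken before either treatment began, and successive biopsies of a cow came from different glands of the udder in alternation. Expression is given as TMM-scaled CPM, counts scaled to a common library size, which does not correct for gene length, so levels were compared between days and cows and never between genes.

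Chemokines are small secreted proteins that steer migrating leukocytes through receptors on the cell surface. CXCL12 is made mainly by stromal and endothelial cells and acts through CXCR4, with ACKR3 as a scavenging receptor. It retains and positions hematopoietic cells and lymphocytes in tissue. CXCL13 acts through CXCR5 and draws B cells and follicular helper T cells into lymphoid follicles. CXCL17 is expressed at mucosal and glandular epithelia and attracts monocytes, macrophages and dendritic cells. After milk removal stops, the mammary gland involutes: secretory epithelium is lost, leukocytes enter and the stroma is remodeled, before the gland is rebuilt ahead of calving.

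The libraries labelled D-3 were not alike, which bears on every comparison with that day. The milk protein genes LALBA, CSN1S1 and CSN2 took 40.2 to 49.8% of all counts at D-3 in 5 cows (7965, 8541, 8564, 8647 and 8713). In the other 7 cows they took 0.190 to 8.03%, within the 0.00669 to 14.5% of the 48 samples taken after dry-off. In this the D-3 libraries of those other cows go against their label of late lactation. For CXCL12, CXCL13 and CXCL17, D3 vs. D-3 is given below with all 12 libraries and again without each set. The same holds for CXCL17 at D7, D14 and D25 vs. D-3. For CXCL16, CCL1 and CCL25, D3 vs. D-3 is also given without the milk-rich set. Other values of single genes against D-3, ratio changes from D-3 and treatment comparisons involving D-3 are not given without either set. A further library stood apart: the D14 sample of cow 7965 held 3.36 CPM of the epithelial keratin KRT19, against 231 to 3229 CPM in the other 59, and 5396 CPM of the fibroblast proteoglycan DCN, against 386 to 1626 CPM. Total counts were 20525083 to 26183990 per sample.

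All 3 chemokines changed between D3 and D7. By the median of 12 cows, CXCL12 and CXCL13 were lowest at D3 and CXCL17 was highest there. Among consecutive time points, 1 of the 3 genes passed FDR ≤ 5% for D3 vs. D-3, where 15.1% of all 14714 loci tested passed. All 3 passed for D7 vs. D3, where 2.92% of loci did. None of the 3 passed for D14 vs. D7 or D25 vs. D14, where 0% and 0.0612% of loci passed. The count of 0 loci for D14 vs. D7 came from edgeR's quasi-likelihood test, with 257 loci at an unadjusted p under 0.05, and DESeq2 gave 0 as well. With tagwise dispersions edgeR called 10 loci in that comparison. In bulk tissue, fewer cells of a type and less RNA per cell cannot be told apart.

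**Figure D1:**
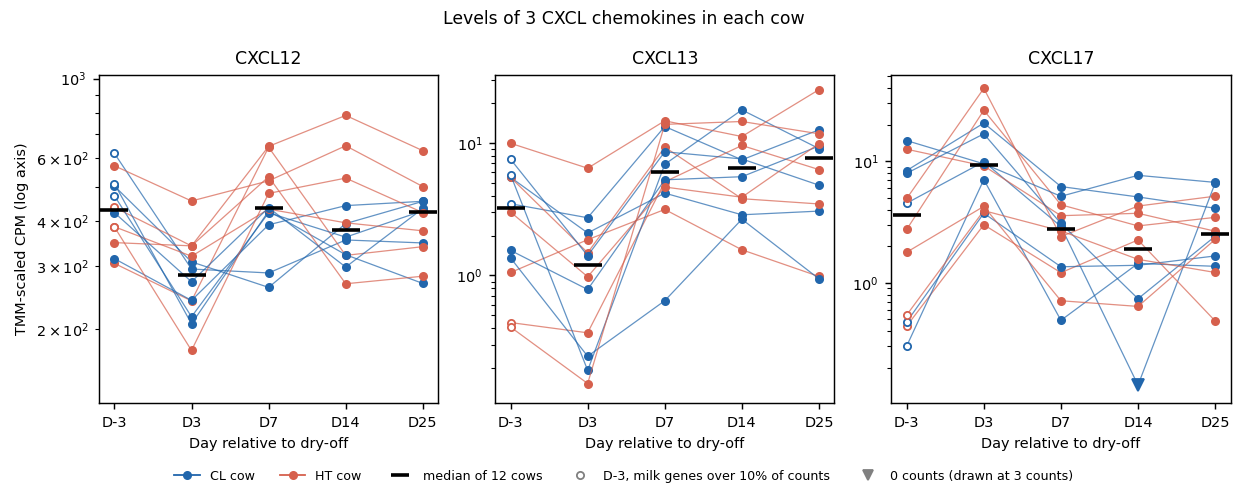
TMM-scaled CPM (log axis) of CXCL12, CXCL13 and CXCL17 in each of the 12 cows at the 5 time points, with CL cows in blue, HT cows in red and the median of 12 cows as a black bar. Open circles mark the 5 D-3 libraries rich in milk protein genes, and the triangle marks the library without a CXCL17 count, drawn at the level of 3 counts. At D3 the medians were lowest for CXCL12 (283) and CXCL13 (1.19) and highest for CXCL17 (9.36).

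CXCL12, the CXCR4 ligand, ranged from 305 to 619 CPM at D-3 with a median of 430. At D3 it ranged from 175 to 456 CPM with a median of 283. By TMM-scaled CPM all 12 cows were lower at D3 than at D-3, although the 2 ranges overlapped. Expression was downregulated at D3 relative to D-3 by edgeR's quasi-likelihood test (log2 fold change -0.63, SE 0.16, FDR 0.00446). The mean within-cow change was -0.64 ± 0.42 on the log2 CPM scale (SD, n = 12; two-sided exact sign-flip p = 4.88e-04, the smallest that 12 cows can give).

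How far CXCL12 fell at D3 depended on the D-3 libraries and on the scaling, and the number of cows in which it fell depended on the scaling. Without the 5 D-3 libraries rich in milk protein genes its log2 fold change was -0.52 and no longer passed (FDR 0.205), in a fit in which only 18 loci, or 0.122% of those tested, passed. Without the 7 D-3 libraries poor in them it was -0.74 (FDR 0.00238), and 45.3% of loci passed. Scaling by library size alone gave -0.18 (FDR 0.502). Within cows CXCL12 was then lower at D3 in 8 of 12 and higher in 4 (exact sign-flip p = 0.584). That scaling also moved the median of all loci from about 0 to 0.35, so CXCL12 lay below the median locus under either scaling.

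CXCL12 returned at D7, with 262 to 647 CPM and a median of 435. It rose in 10 of 12 cows between D3 and D7 (log2 fold change 0.68, SE 0.16, FDR 0.0123 by edgeR; exact sign-flip p = 0.00293). The exceptions were the CL cows 7965 and 8060, which went from 295 to 287 CPM and from 309 to 262 CPM. Leaving out cow 8564 or cow 8713 put the FDR at 0.0574 or 0.0531, just outside the threshold, and with library size alone the call was lost at a similar fold change (0.71, FDR 0.185). From D7 onward the level stayed near that of D-3, with medians of 378 CPM at D14 and 426 CPM at D25 and log2 fold changes against D-3 between -0.09 and 0.06, none past the threshold. In order of the mean the days were D3, D25, D14, D-3 and D7, at 285, 412, 427, 440 and 457 CPM, each with an SD of 76.6 to 156, and only D3 stood off from its neighbours. D14 and D25 were each above D3 in 11 of 12 cows (exact sign-flip p = 0.00244 for each, comparisons added after the data were seen).

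CXCL13, the ligand of CXCR5, was a gene of low counts with wide spread among cows. At D-3 it ranged from 0.408 to 9.92 CPM with a median of 3.24, and at D3 from 0.153 to 6.43 CPM with a median of 1.19. The lowest D3 value, in HT cow 8713, rested on 3 reads, and the highest, in HT cow 8668, on 166. By TMM-scaled CPM, CXCL13 was lower at D3 than at D-3 in 11 of 12 cows, the exception being HT cow 8314 with 1.05 and 1.86 CPM. With library size alone it was lower in 8 of 12 cows and higher in 4 (exact sign-flip p = 0.0527). At D-3 and D3, HT cow 8713 had 3 and 3 reads, and HT cow 8541 had 4 and 7. The log2 fold change of D3 vs. D-3 was -1.27 (SE 0.51, FDR 0.0835), which missed the threshold, while the exact sign-flip test on the within-cow changes gave p = 0.00293 (mean -1.33 ± 1.31, SD, n = 12).

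Taking the cow as a block, since the same cow gave all 5 biopsies, CXCL13 was downregulated at D3 (log2 fold change -1.33, FDR 0.0194). In that blocked fit 21.5% of all loci passed for D3 vs. D-3 and all 3 chemokines were among them. CXCL13 also passed when HT cow 8668 was left out (-1.51, FDR 0.0306). The value was similar without the 5 milk-rich D-3 libraries (-1.34, FDR 0.269) and without the 7 others (-1.13, FDR 0.153), neither past the threshold, and with library size alone it was -0.80 (FDR 0.251).

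The level of CXCL13 rose again in every cow by D7, to between 0.645 and 14.6 CPM with a median of 6.07. The 12 rises on the log2 CPM scale went from 0.73 in HT cow 8314 to 5.86 in HT cow 8713, and the edgeR fold change passed FDR ≤ 5% (2.24, SE 0.52, FDR 0.0123). It lost that call without cow 8564 (2.14, FDR 0.0547) and with library size alone (2.19, FDR 0.0640). The later days kept this level, with medians of 6.50 CPM at D14 and 7.66 CPM at D25. Against D-3, the log2 fold changes at D7, D14 and D25 were 0.97, 0.95 and 1.09 (FDR 0.213, 0.173 and 0.140), in comparisons in which 8.46%, 19.5% and 13.1% of loci passed. Within cows the rise over D-3 had an exact sign-flip p of 0.0176 at D7, 0.0229 at D14 and 0.0518 at D25. CXCL13 was higher than at D-3 in 10, 10 and 7 of the 12 cows. The largest rises on the log2 CPM scale, 4.81, 4.88 and 4.58, were those of HT cow 8713, which had 3 reads at D-3. In order of the mean the days were D3, D-3, D14, D7 and D25 at 1.56, 3.79, 7.35, 7.44 and 8.10 CPM, and the last 3 did not differ beyond their SDs of 4.52 to 6.69.

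CXCL13 also varied widely from cow to cow. HT cow 8668 had the highest value of all 12 at D-3, D3, D7 and D25, reaching 25.2 CPM at D25. CL cow 8686 was among the low cows throughout and was lowest at D7 and D25, with 0.645 and 0.943 CPM. HT cow 8713 went from 0.408 CPM at D-3 and 0.153 CPM at D3 to 13.8, 14.5 and 11.7 CPM at D7, D14 and D25. By TMM-scaled CPM, CXCL13 was at its lowest at D3 in 11 of the 12 cows.

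CXCL17, the mucosal chemokine, ran the other way. It ranged from 0.302 to 14.8 CPM at D-3 with a median of 3.64, and from 3.01 to 39.9 CPM at D3 with a median of 9.36. The 2 highest D3 values were those of the HT cows 8513 (39.9 CPM, 1022 reads) and 8660 (26.3 CPM). CXCL17 was at its highest at D3 in 10 of 12 cows, the exceptions being CL cow 8686 and HT cow 8314, which were highest at D-3. The log2 fold change of D3 vs. D-3 was 1.35 (SE 0.52, FDR 0.0713), outside the threshold in the edgeR fit. The mean within-cow change was 1.84 ± 1.48 (SD, n = 12; exact sign-flip p = 0.00244).

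With the cow as a block the upregulation of CXCL17 at D3 passed (log2 fold change 1.59, FDR 0.00410). It also passed by DESeq2 (1.37, FDR 0.0400), with tagwise dispersions (1.36, FDR 0.0497), without the D14 library of cow 7965 (1.35, FDR 0.0498), and without cow 8314 (1.60, FDR 0.0473) or cow 8686 (1.66, FDR 0.0259). Those were the 2 cows in which CXCL17 was lower at D3 than at D-3, and without any other single cow it did not pass. The D-3 values, however, went with the milk gene share, cow 7965 (4.53 CPM) being the highest of the milk-rich set. Among the 5 cows whose D-3 library was rich in milk protein genes, CXCL17 at D-3 was 0.302 to 4.53 CPM with a median of 0.477. It rested there on 3 reads in cow 8564, on 4 each in cows 8541, 8647 and 8713, and on 47 in cow 7965. CXCL17 rose in 5 of these 5 cows by a median of 2.67 on the log2 scale. In the other 7 it was 1.79 to 14.8 CPM at D-3 with a median of 7.98, and it rose in 5 of 7 by a median of 1.21. Fits without either set of D-3 libraries kept the D3 libraries of all cows, so they did not compare within cows. The fold change was 3.36 (FDR 5.19e-04, with 45.3% of all loci passing) against the milk-rich D-3 libraries alone. Against the others alone it was 0.76 (FDR 0.550, with 0.122% of loci passing). At D3 itself the 5 cows with milk-rich D-3 libraries had 3.01 to 9.94 CPM of CXCL17, and the other 7 had 4.26 to 39.9 CPM. The parts of milk gene expression and of differences between cows in these fold changes were not tested.

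**Figure D2:**
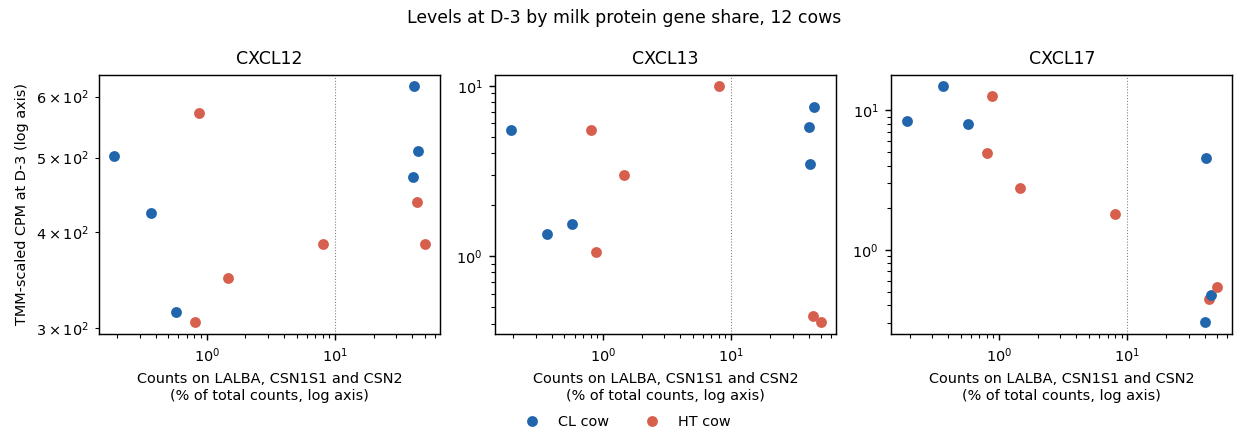
CPM of each chemokine at D-3 (log axis) against the percentage of counts on LALBA, CSN1S1 and CSN2 in the same library (log axis), 1 point per cow, CL in blue and HT in red, with a dotted line at 10%. CXCL17 lay at 0.302 to 4.53 CPM to the right of the line and at 1.79 to 14.8 CPM to its left. The ranges on both sides overlapped for each chemokine.

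Between D3 and D7 CXCL17 fell in all 12 cows, to between 0.491 and 6.21 CPM with a median of 2.80. The edgeR log2 fold change was -2.17 (SE 0.54, FDR 0.0177), and the within-cow changes lay between -4.00 and -0.54. The call was lost without cow 8564 (-2.13, FDR 0.0547) and with library size alone (-2.17, FDR 0.138), with nearly the same size of change. CXCL17 then stayed low, with medians of 1.91 CPM at D14 and 2.54 CPM at D25, and D14 and D25 were each below D3 in all 12 cows (exact sign-flip p = 4.88e-04 for each, the smallest possible, comparisons added after the data were seen). The library of cow 7965 at D14, the one nearly without KRT19, had 0 CXCL17 reads, which allows up to 0.144 CPM (3 counts, counting error only). Over the other 59 samples Pearson's r of CXCL17 with KRT19, on log2 CPM, was 0.016. In order of the mean the days were D14, D7, D25, D-3 and D3, at 2.65, 2.85, 3.18, 4.97 and 12.9 CPM. The first 4 had SDs of 1.78 to 4.99, and the within-cow changes tested among them had exact sign-flip p from 0.422 to 0.989.

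The position of CXCL17 after D7 relative to D-3 turned on which D-3 libraries were used. With all 12, the log2 fold changes at D7, D14 and D25 against D-3 were -0.83, -0.93 and -0.67 (FDR 0.322, 0.208 and 0.419). Against the 7 milk-poor libraries alone they were -1.43, -1.53 and -1.27, and against the 5 milk-rich libraries alone they were 1.17, 1.08 and 1.33. None of these values passed FDR ≤ 5%.

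Marker genes give some context on tissue make-up, but few of the marker lists could be paired with a locus. None of the markers listed for B cells, T cells, plasma cells, neutrophils or macrophages was paired, so the leukocytes that these chemokines attract were not measured here. Of 5 epithelial markers only KRT19 was paired, with medians of 908, 918, 589, 582 and 503 CPM from D-3 to D25. Of 5 fibroblast markers only DCN was paired, with medians of 673, 703, 1026, 952 and 752 CPM. The summed muscle myosins MYH2 and MYH7 had medians of 1.09, 4.03, 0.997, 0.872 and 0.705 CPM, highest at D3, when 1 library reached 16.7 CPM. KDR, the endothelial receptor of VEGF and the only 1 of 5 endothelial markers paired, had medians of 130, 91.9, 113, 131 and 130 CPM, lowest at D3 as CXCL12 was. CLU, a chaperone gene that was the only 1 of 3 follicular dendritic cell markers paired and that epithelia also express, had medians of 800, 2608, 1896, 1549 and 1284 CPM, highest at D3, when CXCL13 was lowest. ADIPOQ, the adipocyte hormone, had its lowest median at D3 (5.43 CPM, against 13.3 to 18.8 CPM on the other days). The part of these differences in the changes of the 3 chemokines was not tested.

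Ratios of counts within a library do not depend on the scaling between libraries, except through the pseudocount of 1 added to each count. They were used to check that the chemokines moved apart. The log2 ratio of CXCL13 to CXCL12 changed by -0.78 ± 1.21 between D-3 and D3 (SD, n = 12; exact sign-flip p = 0.0415), with 10 of 12 cows lower. With a pseudocount of 0.5, 9 of 12 cows were lower (exact sign-flip p = 0.0435). The ratio then rose by 1.90 ± 1.29 between D3 and D7, in all 12 cows (exact sign-flip p = 4.88e-04). CXCL13 therefore moved further than CXCL12 in both steps, and the ratio stayed 1.13 to 1.24 above D-3 at D7, D14 and D25 (exact sign-flip p = 0.0269, 0.00977 and 0.0259).

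The log2 ratio of CXCL17 to CXCL12 rose by 2.45 ± 1.60 between D-3 and D3, in 11 of 12 cows (exact sign-flip p = 0.00146). It fell in all 12 cows between D3 and D7, by a mean of -2.71 ± 1.27 (exact sign-flip p = 4.88e-04). At D7, D14 and D25 its mean was between -0.62 and 0.04 from D-3 (exact sign-flip p = 0.510, 0.403 and 0.926). Cows went both ways, with 7, 5 and 6 of 12 higher than at D-3. At D-3 this ratio was -10.2 to -7.06 in the 5 cows with milk-rich libraries and -7.72 to -4.83 in the other 7. Its changes against D-3 were not tested for each set of cows. CXCL17 also moved further than CXCL16, another CXC ligand, which is anchored in the membrane and binds CXCR6: their ratio rose by 0.97 ± 1.18 at D3 (p = 0.0132, exact sign-flip) and fell by a mean of -1.29 ± 1.02 at D7 (p = 0.00146, exact sign-flip). The 3 ratios were tested in 7 comparisons of days each, and these p-values are unadjusted.

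**Figure D3:**
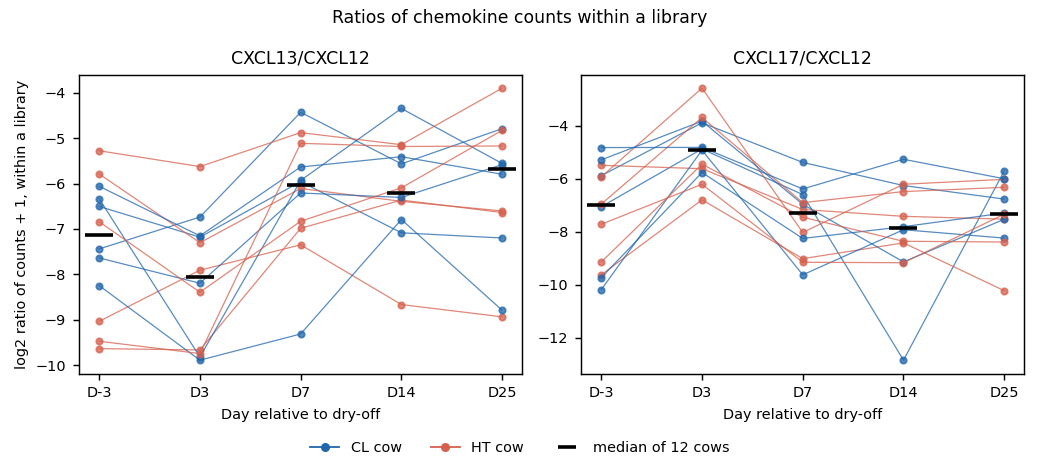
Log2 ratio of counts (each plus 1) of CXCL13 to CXCL12 and of CXCL17 to CXCL12 within the same library, 1 line per cow, with CL in blue, HT in red and the median of 12 cows as a black bar. From D3 to D7 the first ratio rose and the second fell in all 12 cows, and the single low point of the second at D14 is the library of cow 7965 with 0 CXCL17 reads.

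Heat stress was compared with cooling at each time point, with D-3 as the background before treatment. None of the 3 genes passed FDR ≤ 5% on any day, where 0% of all loci passed on each of the 5 days and 0% for the interaction of treatment and time. These counts of 0 came from edgeR, with 298, 97, 672, 247 and 333 loci at an unadjusted p under 0.05 on the 5 days and 85 for the interaction. DESeq2 called 3 loci at D7, 1 at D25 and 0 on the other days, and tagwise dispersions called 5 at D7, 1 at D25, 1 at D-3 and 0 elsewhere, and the 3 chemokines were not among them.

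CXCL12 at D7 had the smallest p of the 15 comparisons between treatments. CL cows ranged from 262 to 437 CPM with a median of 407, and HT cows from 433 to 647 CPM with a median of 526. All 6 HT cows were above the CL median, and the groups overlapped only in that HT cow 8668 (433 CPM) lay just under CL cow 8686 (437 CPM). The log2 fold change of HT vs. CL was 0.54 (SE 0.16, unadjusted p = 0.00548, FDR 0.959 by edgeR), and the exact permutation test over cows gave an unadjusted p of 0.00433, 1 of 15 such tests (3 genes on 5 days). An unadjusted p under 0.05 was met by 4.57% of all loci at D7. On the other days the log2 fold changes of CXCL12 were -0.21 at D-3, 0.28 at D3, 0.45 at D14 and 0.09 at D25, each within the cow to cow spread (SE 0.19 to 0.25; exact permutation p on the log2 CPM values from 0.221 to 0.762). The D25 value turned to -0.05 without cow 8541.

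Followed within cows, CXCL12 at D7 relative to D-3 was higher in 5 of 6 HT cows (mean change 0.43) and in 2 of 6 CL cows (mean -0.35). The difference between treatments in this change was 0.78 on the log2 scale (exact permutation p = 0.0195, unadjusted, 1 of 21 such tests). It kept its direction with any single cow left out, at 0.63 to 0.91 (exact permutation p from 0.00866 to 0.0455). With library size alone it was 0.53 (exact permutation p = 0.368). The interaction of treatment and time for CXCL12 over all 60 samples had an unadjusted p of 0.0867 by edgeR and of 0.0365 with the cow as a block, past no FDR threshold in either fit.

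**Figure D4:**
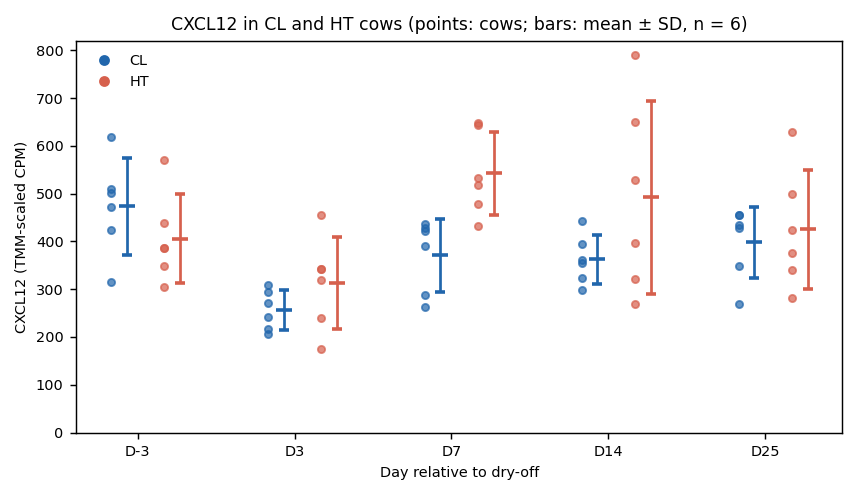
TMM-scaled CPM of CXCL12 in CL (blue) and HT (red) cows at each time point, 1 point per cow, with the mean ± SD of 6 cows beside the points. At D7 HT cows lay at 433 to 647 CPM and CL cows at 262 to 437 CPM, while on the other days the 2 groups overlapped widely.

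CXCL13 and CXCL17 did not differ detectably between HT and CL. For CXCL13 the HT vs. CL log2 fold changes ran from -0.26 at D-3 to 0.60 at D3 with SEs of 0.55 to 0.82. The differences of mean log2 CPM, to which the exact test applies, ran from -0.89 at D-3 to 0.58 at D7 (exact permutation p from 0.307 to 0.968). For CXCL17 the edgeR fold changes ran from -0.64 at D-3 to 0.34 at D3 with SEs of 0.53 to 0.90. The differences of mean log2 CPM ran from -0.63 at D25 to 0.74 at D14 (exact permutation p from 0.331 to 0.857), and they had the opposite sign to the edgeR value at D3 (-0.14) and at D14 (edgeR -0.08). Single cows also turned the sign: CXCL13 went to -0.37 at D3 and -0.04 at D25 without cow 8668, and CXCL17 to -0.29 at D3 without cow 8513. At D14, where the edgeR values were near 0 (0.02 for CXCL13), leaving out any of 6 cows turned CXCL13 (lowest -0.29, without cow 8713) and any of 4 turned CXCL17 (highest 0.57, without cow 8686). With SEs of this size, differences of 1 log2 unit between the treatments would not have stood out. At D3, when CXCL17 peaked, HT cows had 3.01 to 39.9 CPM with a median of 6.72 and CL cows 3.74 to 20.7 CPM with a median of 9.74. At D7, CXCL13 was 3.14 to 14.6 CPM with a median of 7.17 in HT cows and 0.645 to 13.3 CPM with a median of 6.07 in CL cows, so the groups overlapped over most of their range. The rise of CXCL13 and the fall of CXCL17 from D3 to D7 held in all 6 cows of each treatment. The interaction with time had unadjusted p-values of 0.911 and 0.878.

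Other genes of the chemokine system were read from a list of 67 ligands, receptors and related genes, of which 6 could be paired with a locus: CXCL16, CCL1, CCL3, CCL16, CCL25 and the lymphotoxin beta receptor LTBR. None of the chemokine receptors, CXCR4, CXCR5 and ACKR3 included, was paired. The pairing rests on tables ranked by results of these samples, so the counts that follow are descriptive. For D3 vs. D-3, where 15.1% of all loci passed, 2 of the 6 rose, 1 fell and 3 did not pass. For D7 vs. D3, where 2.92% of loci passed, 2 fell and 4 did not pass.

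CXCL16 and CCL1 passed upward at D3 and downward at D7. Over the 60 samples their Pearson's r with CXCL17 was 0.32 and -0.04, and 0.06 and -0.36 with the mean of each treatment and day taken out. CXCL16 was upregulated at D3 (log2 fold change 0.85, FDR 1.25e-04) and downregulated at D7 (-0.80, FDR 0.00225), going from a median of 54.2 CPM at D-3 to 91.5 CPM at D3 and 58.6 CPM at D7. CCL1, a ligand of CCR8 on T cells, rose by 2.33 at D3 (FDR 0.00257) and changed by -2.63 at D7 (FDR 0.00659). Its D3 values were uneven, from 0.237 to 14.6 CPM, and the CL cows 8647 (14.6 CPM) and 8564 (11.2 CPM) were the highest. Its median went from 0.458 CPM at D-3 to 0.761 CPM at D3, and within cows it rose in 9 of 12 by a mean of 1.14 ± 1.32 on the log2 CPM scale (SD, n = 12; exact sign-flip p = 0.0117). CCL25, the CCR9 ligand that guides lymphocytes to mucosa, fell slightly at D3 (-0.44, FDR 0.00434) and had a log2 fold change of 0.25 at D7 (FDR 0.225), and with library size alone its D3 value was 0.10 (FDR 0.617).

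CCL3, a macrophage inflammatory protein, was higher at D3 than at D-3 in all 12 cows (mean 0.66 ± 0.46 on the log2 CPM scale, SD, n = 12; exact sign-flip p = 4.88e-04, the smallest possible), while the edgeR fold change of 0.56 did not pass (FDR 0.269; with the cow as a block, FDR 0.230). In the edgeR fit it passed against D-3 at D14 (1.34, FDR 0.00379) and D25 (0.97, FDR 0.0413), and its highest D14 value, 14.7 CPM, was that of the library of cow 7965 that stood apart. CCL16 and LTBR did not pass in any of the 7 comparisons of days by edgeR. Within cows CCL16 was lower at D7 than at D3 in 11 of 12 (mean -0.59; exact sign-flip p = 0.00146) and LTBR in 9 of 12 (mean -0.31; exact sign-flip p = 0.0308). These within-cow p-values are unadjusted. Without the 5 milk-rich D-3 libraries the D3 vs. D-3 values were 0.62 for CXCL16, 2.85 for CCL1 and -0.13 for CCL25 (FDR 0.139, 0.0782 and 0.617).

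**Figure D5:**
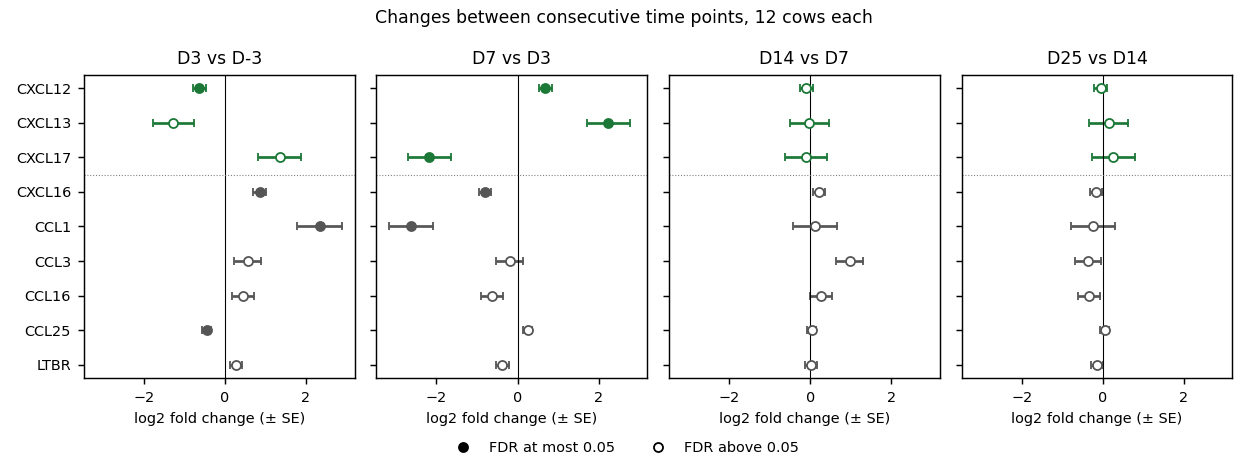
Log2 fold change ± SE (edgeR, horizontal axis) between consecutive time points for the 3 chemokines (green, above the dotted line) and the 6 paired genes of the chemokine list (grey), with filled points where FDR is at most 0.05. All 3 chemokines passed for D7 vs. D3, with CXCL12 (0.68) and CXCL13 (2.24) up and CXCL17 (-2.17) down, and no gene shown passed for D14 vs. D7 or D25 vs. D14.

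The genes whose expression ran most closely with each chemokine were sought among 3004 of the 14714 tested loci, those paired with a symbol. The search was a description over the 60 samples, which share cows and days. Symbols came from tables ranked by results of these samples, so loci without a symbol could lie closer. For CXCL12 the closest genes in this search were MYOC (myocilin, a secreted glycoprotein; Pearson's r 0.71), HCRTR1 (an orexin receptor; 0.64) and PCOLCE2 (an enhancer of procollagen processing; 0.63). MYOC had its lowest mean at D3, 10.99 CPM against 21.3 to 27.8 CPM on the other days. For CXCL13 they were the matrix protein gene ABI3BP (0.73), the cell adhesion gene CNTN1 (0.72) and ENPP2, which encodes autotaxin (0.72). For CXCL17 they were WNT5B, a Wnt ligand (0.86), PARD3, a cell polarity gene (0.79), and KCNK3, a potassium channel gene (0.78). WNT5B had a mean of 36.3 CPM at D3 and of 20.7 to 24.02 CPM on the other days.

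The likeness of these pairs was also computed within days. The pairs had been chosen by r over the same 60 samples, and differences between cows were left in, so these values are descriptive. After the mean of each treatment and day was taken out, r was 0.89 for CXCL17 with WNT5B, 0.71 for CXCL13 with ENPP2 and 0.54 for CXCL12 with MYOC. The 9 values computed in this way ran from 0.49 for CXCL12 with HCRTR1 to the 0.89 of WNT5B. With the means of treatment and day left in, and without the D14 library of cow 7965, the 9 values of r over 59 samples lay between 0.67 and 0.85.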

How the data were processed

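Counts were analyzed for 60 mammary biopsies of 12 cows. The authors sequenced single-ended reads, trimmed them with Trim Galore 0.4.1, mapped them with TopHat2 2.0.13, assembled loci with Cufflinks 2.2.1 and the ENSEMBL annotation, and deposited whole-number counts of uniquely mapped reads per locus from HTSeq without normalization. The study's methods name the bosTau7 build and the submitters' processing notes UMD3.1, so no coordinates are given. A file holds 26073 entries for 25223 loci, and each locus was used once. The filter kept loci that reached 1 CPM in 6 or more samples. Time points were compared by edgeR 4.0.16 (R 4.3.3; TMM, quasi-likelihood F-test, a mean per day over 60 samples), and HT with CL within each day. FDR is Benjamini-Hochberg adjusted over the 14714 loci tested. The SE of a fold change was derived from the F statistic. Single genes were tested by two-sided exact sign-flip tests (4096 sign changes) and two-sided exact permutation tests (924 choices of 6 cows) on log2 CPM (prior count 2), unadjusted. Ratios used a pseudocount of 1. The edgeR tests of D3 vs. D-3 and of HT vs. CL at D7 were first tried on simulated data.

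Symbols came from the study's supplementary tables, held in part, which pair 3033 loci. The members, lists and several alternatives were chosen with earlier results of these data known. Genes named are the 3 members, listed chemokine genes past the threshold between consecutive days, CXCL16, and the 3 loci of highest correlation with each member. CCL3, CCL16 and LTBR are named beyond that rule, after their values were seen. Samples pair by cow, as the labels give: with treatment and day means removed, samples of the same cow had a mean r of 0.29 (120 pairs) and samples of different cows -0.06 (600 pairs). The D14 and D25 samples of cow 8513 resembled the earlier samples of cow 8660 (mean r 0.51) more than its own (-0.10), so those labels were also exchanged. Alternatives were RLE factors, library size alone, TMM without milk genes, DESeq2 1.42.0, other filters, tagwise dispersions, the cow as a block, other sample sets and each cow left out. Figures used matplotlib 3.10.9 (Python 3.11.15, numpy 2.4.6, pandas 2.3.3).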

Additional observations from a re-analysis of the deposited data

Results flagged for a closer look

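In the 30 groups of 6 cows (3 genes, 2 treatments, 5 days) a single cow lay far from the other 5 in 3 groups on the CPM scale. For normally distributed values chance puts a cow that far out in about 1 in 20 groups, but CPM values here are skewed to high levels. On the log2 CPM scale, added after seeing the data, 0 of the 30 groups had such a cow, and the gap of the 3 below to the nearest cow was 0.45, 0.37 and 0.29 of the group's range. CXCL13 reached 17.7 CPM in CL cow 8564 at D14, CXCL13 reached 6.43 CPM in HT cow 8668 at D3, and CXCL17 reached 12.6 CPM in HT cow 8314 at D-3. Cow 8668 had high CXCL13 on most days, and cow 8314 had 1 of the 7 D-3 libraries poor in milk protein genes.

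The change of CXCL12 from D-3 to D7 differed between treatments, by 0.78 on the log2 scale (HT minus CL; exact permutation p = 0.0195). It is 1 of 21 unadjusted tests, 5 of 6 HT cows rose against 2 of 6 CL cows, and with library size alone the difference was 0.53 (exact permutation p = 0.368).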

How the results depend on the processing

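The scaling mattered most for D-3. With library size alone, values that no longer passed were CXCL12 D3 vs. D-3 (-0.18) and the D7 vs. D3 changes of CXCL12 (0.71), CXCL13 (2.19) and CXCL17 (-2.17), and values that came to pass were CXCL13 at D14 (1.41) and D25 (1.58) vs. D-3. Under the same scaling the within-cow changes of CXCL12 (-0.073) and CXCL13 (-0.82) at D3 and the HT minus CL difference of CXCL12 at D7 vs. D-3 (0.53) no longer passed, while CXCL12 at D7 vs. D-3 (0.68), CXCL13 at D25 vs. D-3 (1.75) and the HT minus CL difference of CXCL12 at D25 vs. D14 (-0.31) did. CXCL12 at D25 vs. D-3 turned from -0.10 to 0.61, CCL25 turned to 0.10, 0.47 and 0.56 at D3, D14 and D25 vs. D-3, and LTBR at D14 vs. D-3 to 0.47. That scaling moved the median of all loci by 0.35 to 0.48 in comparisons with D-3. The causes were not tested.

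With the cow as a replicate block CXCL13 (-1.33) and CXCL17 (1.59) passed at D3 vs. D-3. The block changed no other call of the 3 genes, and CCL3 at D25 vs. D-3 did not pass in it (0.88, FDR 0.0586). With the labels of cows 8513 and 8660 exchanged as well, these values were -1.32 and 1.58, CXCL13 at D14 vs. D-3 passed (1.01), and in the within-cow tests so did CXCL13 at D25 vs. D-3 (1.13) and the HT minus CL difference of CXCL12 at D14 vs. D-3 (0.57). CXCL17 at D3 vs. D-3 also passed with tagwise dispersions (1.36), by DESeq2 (1.37) and without the D14 library of cow 7965 (1.35). The 2 choices of D-3 libraries, made after seeing the data, gave -0.52 for CXCL12 without the milk-rich libraries and 3.36 for CXCL17 without the milk-poor ones.

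Leaving out each cow in turn, D3 vs. D-3 ran from -1.51 to -1.09 for CXCL13, passing only without cow 8668, and from 1.04 to 1.66 for CXCL17, passing only without cow 8314 or 8686. D7 vs. D3 ran from 0.61 to 0.75 for CXCL12, lost without cow 8564 or 8713, from 1.98 to 2.59 for CXCL13 and from -2.32 to -1.85 for CXCL17, both lost without cow 8564. No HT vs. CL value or ratio changed its call under the alternatives run for it.

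Counts of loci past FDR ≤ 5% moved more. For D3 vs. D-3 they were 2217 in the fit reported, 18 and 6666 without the milk-rich and the milk-poor D-3 libraries, 845 with only the samples of both days, and as few as 1230 with a cow left out. For D7 vs. D3 they were 430, against 36 with library size alone, 881 with the block, 648 with tagwise dispersions, 709 by DESeq2, 751 and 780 without the milk-rich and milk-poor libraries, and as few as 49 with cow 8564 left out. For D7, D14 and D25 vs. D-3 they were 1245, 2869 and 1930, against 0, 0 and 2 without the milk-rich and 6953, 7393 and 7225 without the milk-poor libraries. For D25 vs. D14 the 9 loci went from 0 with the block to 30 with tagwise dispersions. Depth limits CXCL13 and CXCL17 most, with as few as 3 and 0 reads in a library.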
